A study of Homo sapiens with 12 samples.

Results

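Camptothecin traps DNA topoisomerase I on DNA, and 10 genes around that lesion were followed on bead arrays of HCT116 colon cancer cells: the topoisomerases TOP1, TOP1MT, TOP2A, TOP2B, TOP3A and TOP3B, and the repair genes TDP1, TDP2, PARP1 and XRCC1. All 17 probes annotated to these genes, of 47300 on the array, were taken. A signal was called detected at a detection p under 0.01 against the negative control beads, and 13 of the 17 probes were detected on at least 3 of the 12 arrays and were tested, among 17264 probes tested in all. These 13 probes cover 9 genes, since neither probe of TDP2 passed. The 10 genes were taken by name from 20036 genes with a probe.

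The 4 groups of 3 arrays each were ATF3-wildtype (WT) and ATF3-knockout (KO) HCT116 cells, each given DMSO or 1.5 µM camptothecin (CPT) for 4 h. HCT116 is an established colon cancer line, and ATF3 is a transcription factor induced by stress. The knockout was made by viral gene targeting of an ATF3 exon, and all knockout arrays carry 1 clone name, so a difference between WT and KO cells cannot be told apart from a difference between this clone and its parent. Whether the 3 arrays of a group came from independently grown cultures is not given, so the p-values refer to the spread among these arrays, part of which may be technical.

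Topoisomerases relieve the winding stress of DNA by cutting it, passing strands and sealing the cut, and during the cut the enzyme stays bound to the DNA end through a tyrosine. Type I enzymes cut 1 strand and type II enzymes cut both. Camptothecin slips into the cut made by topoisomerase I and keeps it from being sealed, which leaves a protein adduct that stops RNA polymerase and replication forks. TDP1 releases the trapped peptide from the DNA end, PARP1 and XRCC1 bring in the enzymes that restore the strand, and TDP2 acts on the corresponding adducts of type II enzymes.

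The arrays detected 15399 to 16823 probes each with DMSO and 13713 to 15639 with CPT, fewer with CPT for every genotype and replicate number. The lowest detected log2 signal of an array was 4.77 to 4.92 with DMSO and 4.89 to 5.17 with CPT. A dim probe's loss of detection with CPT is to be read beside this drop across the arrays. The median raw signals of the arrays lay between 98.2 and 106.8. ATF3, the targeted gene, gave raw signals of 168, 156.8 and 390.4 in WT cells with DMSO and 1123.3, 992.8 and 1713.8 with CPT. In KO cells it gave 127.1, 117 and 130.9 with DMSO and 289.8, 254 and 282.1 with CPT. The KO minus WT difference on the log2 scale was -1.39 ± 0.47 (SE) with DMSO (limma adjusted p = 0.312, and 0.0448 with the replicate number as a block) and -2.39 ± 0.47 with CPT (limma adjusted p = 0.0414), and the KO arrays lay below the WT arrays in both treatments. Of 10 markers of colon epithelium, 6 were detected on all arrays of every group (CDH1, CDX2, EPCAM, KRT18, KRT19 and KRT8), and CDH17, VIL1, CDX1 and LGALS4 were not tested for lack of detection. The summed level of all 10, those without detection included, was 13815 to 16985 in WT cells with DMSO and 10606 to 13189 with CPT. In KO cells it was 15706 to 16362 with DMSO and 10837 to 13331 with CPT. Of 10 markers of other cell types, ALB was detected on 11 of 12 arrays and CD14 on 6, those with CPT. Both were higher with CPT in WT cells, by 0.88 and 1.43 on the log2 scale (limma adjusted p = 0.0176 and 0.0263). Of the 6 epithelial markers KRT19 was lower, at -0.75 (limma adjusted p = 0.00463). PTPRC, CD3E, COL1A1, COL1A2, COL3A1, PECAM1, DES and SFTPC had no tested probe. The summed level of all 10 markers of other cell types, each by its brightest probe, ran from 212 to 235 with DMSO and from 254 to 385 with CPT over both genotypes. That sum includes the background signal of the undetected markers. The part of these marker changes in the results below was not tested.

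Sequences before the transcription start are shown for TOP1, TOP2A, TOP3A and TOP3B, the topoisomerases with a probe called for a change with CPT in both genotypes by the replicate-blocked fit below, so that genes that moved in opposite directions can be set side by side. Each is the stretch of 250 bases that ends just before the annotated start (RefSeq, GRCh38.p14), 5′ to 3′ on the gene's strand. Capitals mark matches on either strand to 6 motifs: the CCAAT box (CCAAT), the cAMP response element (TGACGTCA), its core (TGACG), the AP-1 site (TGACTCA), the GC box (GGGCGG) and the TATA box (TATAAA). The core lies within the full element.
TOP1 (chr20:41028572-41028821, plus strand): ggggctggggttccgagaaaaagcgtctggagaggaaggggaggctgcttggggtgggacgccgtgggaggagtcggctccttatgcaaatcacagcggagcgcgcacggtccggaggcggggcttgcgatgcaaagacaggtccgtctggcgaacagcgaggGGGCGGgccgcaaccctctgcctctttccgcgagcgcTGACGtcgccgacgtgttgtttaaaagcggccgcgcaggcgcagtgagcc
TOP2A (chr17:40417897-40418146, minus strand): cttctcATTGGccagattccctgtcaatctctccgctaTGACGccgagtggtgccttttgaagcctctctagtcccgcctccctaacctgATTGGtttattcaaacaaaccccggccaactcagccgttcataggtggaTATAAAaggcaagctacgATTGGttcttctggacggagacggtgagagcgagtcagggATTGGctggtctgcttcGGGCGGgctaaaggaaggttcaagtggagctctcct
TOP3A (chr17:18314995-18315244, minus strand): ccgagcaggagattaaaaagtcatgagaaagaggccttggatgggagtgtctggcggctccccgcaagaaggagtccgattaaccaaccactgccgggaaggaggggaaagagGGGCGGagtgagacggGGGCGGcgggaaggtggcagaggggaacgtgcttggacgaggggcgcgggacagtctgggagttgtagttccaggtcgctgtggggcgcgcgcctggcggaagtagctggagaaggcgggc
TOP3B (chr22:21982788-21983037, minus strand): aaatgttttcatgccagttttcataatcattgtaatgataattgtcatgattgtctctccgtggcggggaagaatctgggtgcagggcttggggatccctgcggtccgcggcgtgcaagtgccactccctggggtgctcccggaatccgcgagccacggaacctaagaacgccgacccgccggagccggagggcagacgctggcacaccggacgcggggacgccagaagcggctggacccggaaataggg

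TOP2A held 4 CCAAT boxes, all read on the opposite strand and beginning 244, 160, 93 and 53 bases before the start. It also held a core element at 212 bases, a TATA box at 111 bases and a GC box at 36 bases. TOP1 held 1 core element 50 bases and 1 GC box 87 bases before the start, TOP3A held 2 GC boxes and TOP3B held none of the motifs. The table had 10 entries for 9 of the 10 genes, 2 of them for TOP2B. The full cAMP response element, to which ATF3 and its relatives bind, was in 0 of the 10 entries and in 1.65% of all 35116 promoters in the table. The core element was in 5 of 10 entries and 21.2% of promoters, the CCAAT box in 3 and 32%, the GC box in 8 and 42.6%, the TATA box in 1 and 10.7%, and the AP-1 site in 0 and 4.2%. A match describes letters only, and no match says nothing of whether a factor binds.

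With CPT, the probes of TOP1, TOP2A and TOP3A and 1 probe of TDP1 were called lower in both genotypes by the replicate-blocked fit. The probe of TOP3B was called higher, as was TDP1 ILMN_2285713. Neither rise was called with each array scaled to its median (below) and no block. There TOP3B was at 0.25 in WT and 0.60 in KO cells, and TDP1 ILMN_2285713 at 0.12 and 0.15. TOP2B was lower in 6 of 6 replicate pairs but was not called in the blocked fit. In the main fit, without the block, TOP1, TOP3A ILMN_2072973 and TDP1 ILMN_2285713 were called in neither genotype, and TOP2A in WT cells alone. A probe was called at an adjusted p under 0.05 (limma, Benjamini-Hochberg over all 17264 probes). In WT cells 1 of the 13 member probes was called higher and 3 lower, where 12.5% and 15.8% of all tested probes were called higher and lower. In KO cells 1 was called higher and 2 lower, against 12.8% and 15.1% of all probes. The replicate numbers pair the arrays, and with the number as a block 2 were called higher and 5 lower in WT cells (all probes, 23.8% and 22.4%) and 3 higher and 5 lower in KO cells (23.3% and 21.5%). Each array was also scaled to its median over all 47300 probes, most of them undetected, in place of quantile normalization. With this median scaling 0 were called higher and 6 lower in WT cells, against 2.38% and 25.3% of all probes. In KO cells 0 and 4 were called, against 3.5% and 19.8%. After quantile normalization the median change of the 13 probes was -0.03 in WT and -0.27 in KO cells, beside 0.06 and 0.05 over all probes. The members' counts thus lay near the background of all probes, and the results below are those of single genes.

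**Figure D1:**
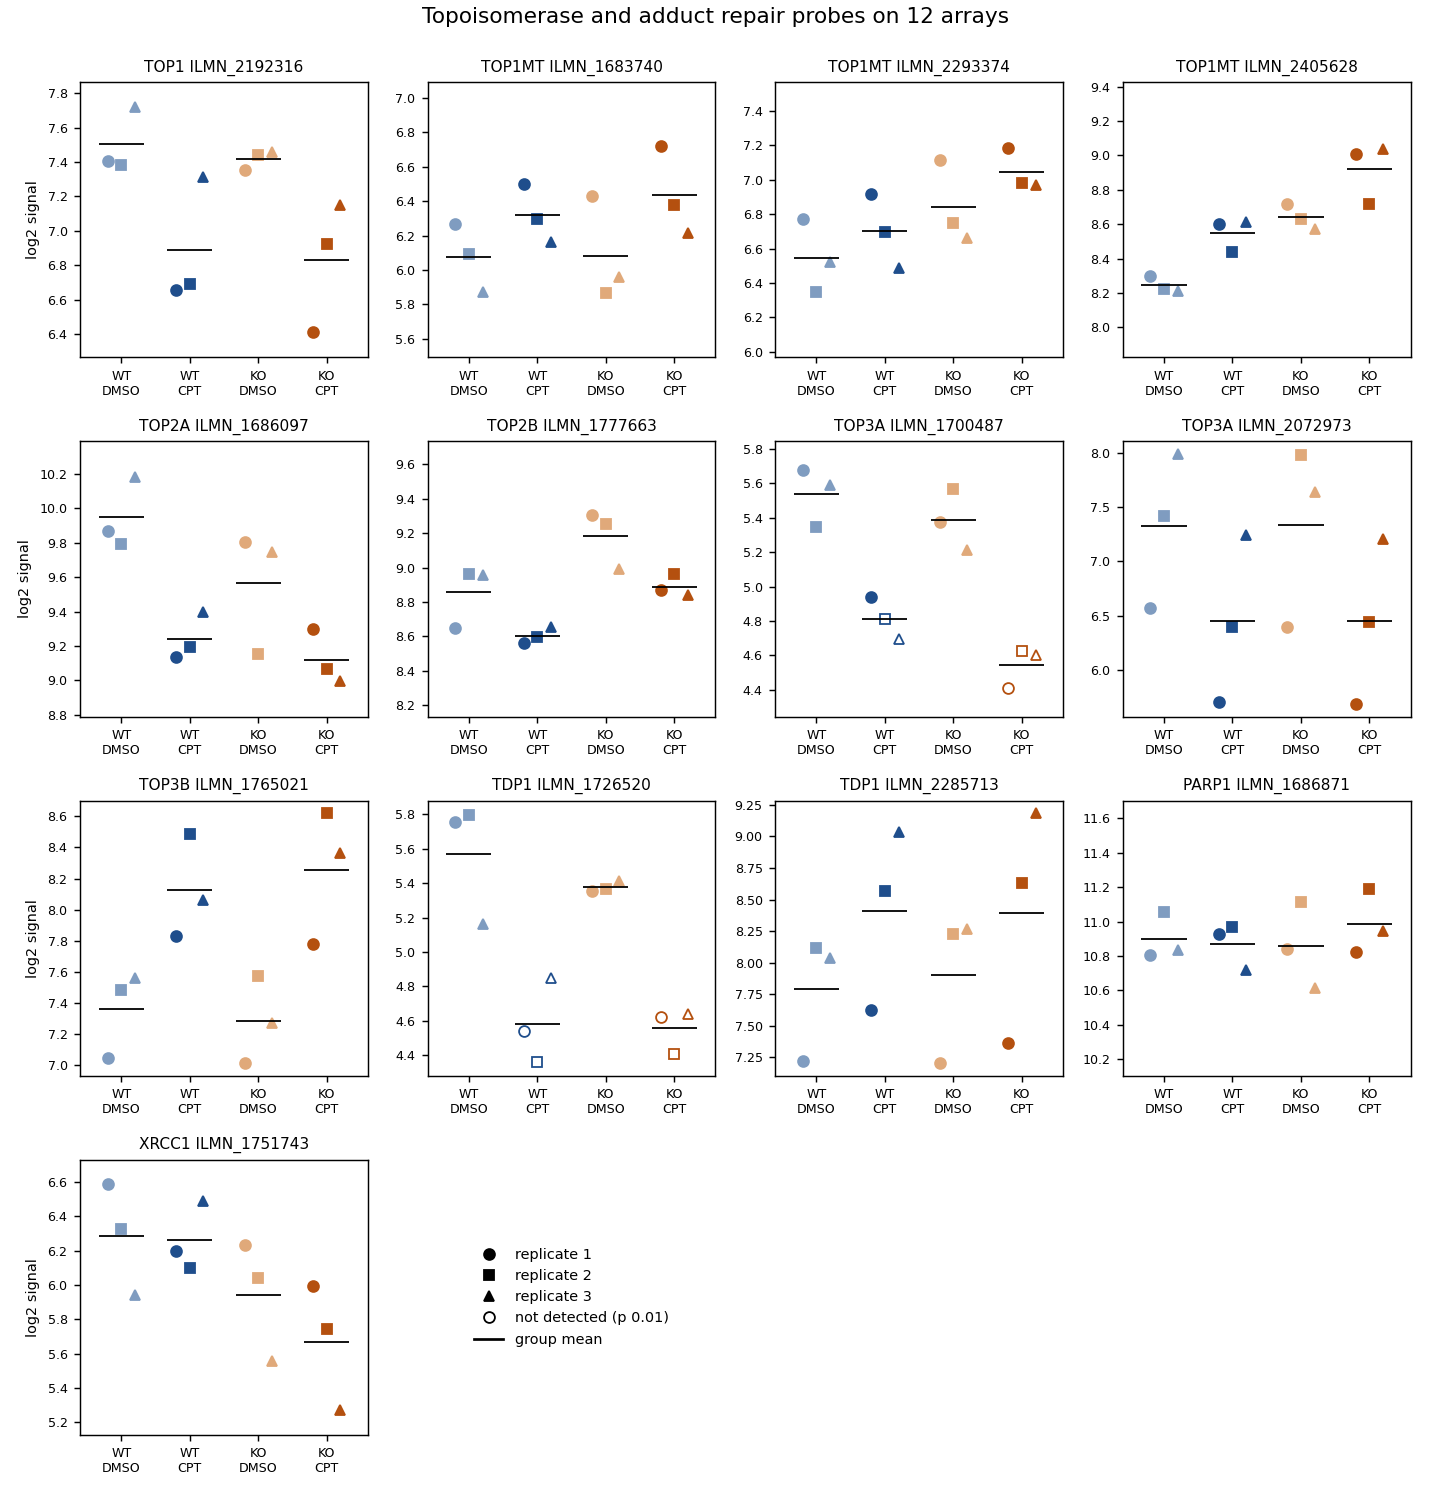
Quantile-normalized log2 signal (y axes of different ranges) of the 13 tested probes on each of 12 arrays, by group (x axis) and replicate (symbol), with lines at group means and open symbols where a probe was not detected. TOP1, TOP3A ILMN_1700487 and TDP1 ILMN_1726520 separate DMSO from CPT in both genotypes, downwards, and TOP3B separates them upwards.

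TOP1, the nuclear enzyme that is the target of camptothecin, was measured by ILMN_2192316, detected on all 12 arrays. In WT cells the raw signals were 308.7, 293.1 and 314.8 with DMSO and 175.5, 163.8 and 196.9 with CPT. In KO cells it was 270, 265.7 and 278.2 with DMSO and 164.1, 178.2 and 184.1 with CPT. Every CPT array was below every DMSO array of either genotype. On the normalized log2 scale the WT mean was 7.50 ± 0.19 (SD, n = 3) with DMSO and 6.89 ± 0.37 with CPT, a change of -0.62 ± 0.22 (SE), which missed the threshold in the unpaired fit (limma adjusted p = 0.0572) and passed it with the replicate block (limma adjusted p = 0.00779). The change in KO cells was -0.59 ± 0.22 (limma adjusted p = 0.068, and 0.00997 with the block). CPT was lower in 6 of 6 replicate pairs, by 0.31 to 0.94. A second TOP1 probe, ILMN_1763419, was detected on 0 of 12 arrays and adds nothing.

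TOP1MT, the enzyme of the mitochondrial genome, differed from its nuclear relative. Its brightest probe, ILMN_2405628, read 493.6, 451.4 and 407.4 in WT cells with DMSO and 478, 365.8 and 380.1 with CPT, and 545.6, 487.7 and 495.1 in KO cells with DMSO and 609.9, 429.8 and 478.4 with CPT. The raw signals of the treatments overlapped in both genotypes, while after quantile normalization the WT groups did not overlap. The normalized change was 0.30 ± 0.15 in WT cells (limma adjusted p = 0.14) and 0.28 ± 0.15 in KO cells (limma adjusted p = 0.177). The other 2 probes gave 0.24 and 0.15 in WT cells and 0.35 and 0.20 in KO cells, of which the first KO value, for ILMN_1683740, passed with the block (limma adjusted p = 0.0359). These positive values depend on quantile normalization, since with each array scaled to its median the 3 probes were at -0.24, -0.37 and -0.15 in WT cells and at 0.00, -0.20 and 0.00 in KO cells.

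Taken within each replicate pair, the response of TOP1 minus that of TOP1MT ILMN_2405628 was -0.90 ± 0.22 (SD over 6 pairs) and was negative in 6 of 6 pairs (exact two-sided sign-flip permutation test, p = 0.03125, the smallest that 6 pairs allow, adjusted p = 0.0469 over 3 such comparisons). With median scaling the difference was -1.004, again in 6 of 6 pairs. That scaling shifts both probes of an array alike, which cancels in the difference, so this value is no separate support. This and the other 2 such comparisons below were chosen after the values were seen, and the WT and KO pairs of a replicate number share whatever that number stands for.

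TOP2A, the type II enzyme of proliferating cells that separates chromosomes before division, gave 1241.5, 1118 and 1293.8 in WT cells with DMSO and 667.9, 579.5 and 608 with CPT (ILMN_1686097). In KO cells it gave 1034.1, 652.6 and 981.3 with DMSO and 733, 531.4 and 466.2 with CPT. The WT groups lay far apart, and in KO cells replicate 2 with DMSO lay below replicate 1 with CPT. TOP2A fell in WT cells by 0.71 ± 0.20 on the log2 scale (limma adjusted p = 0.0199). In KO cells the change was -0.45 ± 0.20 (limma adjusted p = 0.116, and 0.0457 with the block). All 6 pairs were lower with CPT, from -0.78 to -0.09. The WT call was lost without WT DMSO replicate 3 (limma adjusted p = 0.0743) and in fits without WT CPT replicate 1 or 2, and the KO change was -0.65 without KO DMSO replicate 2 (limma adjusted p = 0.0337).

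TOP2B, the type II enzyme that resting and differentiated cells also use, was measured by ILMN_1777663. WT cells gave 600.5, 679.8 and 613.6 with DMSO and 467.7, 401.2 and 387.9 with CPT, and KO cells gave 765.4, 692.3 and 628.3 with DMSO and 557.1, 501.7 and 423 with CPT. The raw signals of DMSO and CPT did not overlap in either genotype. The normalized change was -0.25 ± 0.15 in WT (limma adjusted p = 0.24) and -0.29 ± 0.15 in KO cells (limma adjusted p = 0.177), and all 6 pairs were lower by 0.09 to 0.44. With median scaling the WT change was -0.67 (limma adjusted p = 0.0171). The responses of TOP2A and TOP2B differed by -0.30 ± 0.33 (SD over 6 pairs, exact two-sided sign-flip permutation test, p = 0.09375), which does not show that they respond alike.

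**Figure D2:**
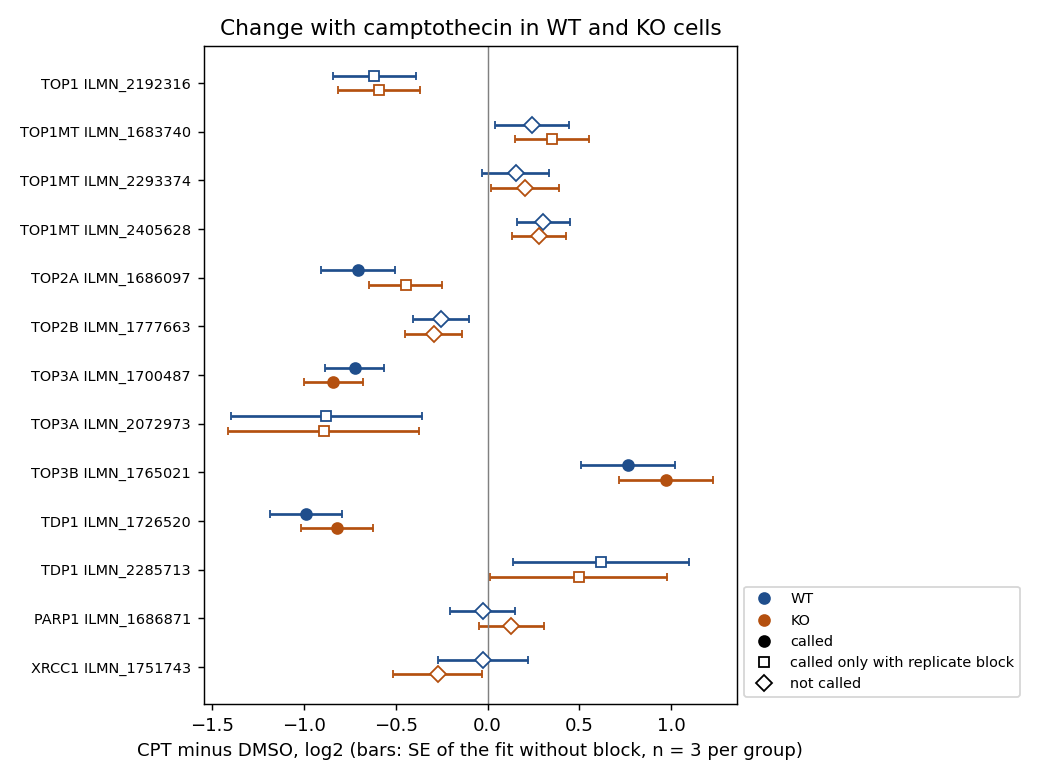
Change with CPT in log2 (x axis) for the 13 tested probes in WT (blue) and KO cells (orange), with SE bars of the unpaired fit (n = 3 per group). Filled circles were called, squares only with the replicate block, diamonds not, and the WT and KO values of each probe lie within 0.26 of each other.

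TOP3A, the type IA enzyme that works with the BLM helicase to dissolve joined DNA molecules and also serves mitochondria, was lower with CPT by both of its probes. Its dimmer probe, ILMN_1700487, gave 143.6, 132.1 and 132.8 in WT cells with DMSO and 109, 109.5 and 106.5 with CPT, and in KO cells 124.7, 132.1 and 123.5 with DMSO and 98.5, 105.5 and 104.1 with CPT. It was detected on all 6 DMSO arrays, on 1 of 3 WT arrays with CPT and on 0 of 3 KO arrays with CPT. The measured change was -0.72 ± 0.16 in WT cells (limma adjusted p = 0.0059) and -0.84 ± 0.16 in KO cells (limma adjusted p = 0.00248). With the KO level under CPT below detection, that change is a bound, at least 1.28-fold lower. Such a bound sets the mean of the detected group against the lowest detected signal of each array of the other.

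The brighter TOP3A probe, ILMN_2072973, was detected on all 12 arrays and spread widely between replicates. It gave 206.3, 298.4 and 365 in WT cells with DMSO and 129.4, 149.4 and 191.7 with CPT, and 176.8, 345.3 and 304.7 in KO cells with DMSO and 131.4, 152.9 and 187.3 with CPT. Replicate 1 was the lowest of each group, and through it the treatments overlapped in both genotypes on the normalized scale. The change was -0.88 ± 0.52 in WT (limma adjusted p = 0.232) and -0.89 ± 0.52 in KO cells (limma adjusted p = 0.228), and with the block the adjusted p-values from limma were 0.00499 and 0.0046. All 6 pairs were lower, by 0.43 to 1.54.

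TOP3B, the type IA relative that also acts on RNA together with TDRD3, was the only member called higher with CPT in the unpaired fit, in both genotypes (ILMN_1765021). WT cells gave 258.6, 308.2 and 291.3 with DMSO and 301.5, 375.7 and 281.6 with CPT, and KO cells gave 232.7, 282.8 and 254.8 with DMSO and 300.2, 406.1 and 324 with CPT. The raw WT groups overlapped and the raw KO groups did not. On the normalized scale TOP3B rose by 0.76 ± 0.25 in WT cells (limma adjusted p = 0.0408) and by 0.97 ± 0.25 in KO cells (limma adjusted p = 0.0139), in 6 of 6 pairs. With median scaling the change was 0.25 in WT (limma adjusted p = 0.448) and 0.60 in KO cells (limma adjusted p = 0.0549), and 5 of 6 pairs were higher. The WT call was also lost in 6 of the 12 fits that leave out 1 array, most without WT CPT replicate 2 (0.58, limma adjusted p = 0.156), and the KO call in 2, most without KO CPT replicate 2 (0.79, limma adjusted p = 0.0633).

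TOP3A and TOP3B moved apart in every pair. The response of TOP3A ILMN_2072973 minus that of TOP3B was -1.75 ± 0.48 (SD over 6 pairs, exact two-sided sign-flip permutation test, p = 0.03125, adjusted p = 0.0469), and -1.77 with median scaling. The difference between the genes was of like size under both scalings, while the size of each gene's own change was not. Median scaling shifts all probes of an array alike, which cancels in such a difference, so the likeness adds no separate support.

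TDP1, which cleaves the bond between the trapped topoisomerase I peptide and the DNA, had 2 tested probes with different values. The dim probe ILMN_1726520 gave 147.5, 150.8 and 119.8 in WT cells with DMSO and 100.9, 100.2 and 108.8 with CPT, and 123.8, 125.2 and 129.8 in KO cells with DMSO and 103.5, 100.6 and 104.7 with CPT. It was detected on all 6 DMSO arrays and on 0 of 6 CPT arrays. It fell by 0.99 ± 0.20 on the log2 scale in WT cells (limma adjusted p = 0.00305), at least 1.44-fold, and by 0.82 ± 0.20 in KO cells (limma adjusted p = 0.00879), at least 1.27-fold.

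The brighter TDP1 probe, ILMN_2285713, was detected on all 12 arrays. It gave 282.1, 427.9 and 372.9 in WT cells with DMSO and 268.4, 395.4 and 488.1 with CPT, and 252.8, 392.9 and 423.9 in KO cells with DMSO and 244.6, 409 and 525.3 with CPT. The groups overlapped, and replicate 1 was the lowest of each. The change was 0.62 ± 0.48 in WT (limma adjusted p = 0.365, and 0.0137 with the block) and 0.49 ± 0.48 in KO cells (limma adjusted p = 0.482, and 0.0381 with the block). With median scaling it was 0.12 and 0.15, with 3 of 6 pairs higher, so no rise holds for this probe. The responses of the 2 probes were not compared by a test, since ILMN_1726520 gives only a bound with CPT. The remaining probe, ILMN_2391789, was detected on 2 of 12 arrays, both with DMSO, and was not tested. Which TDP1 transcripts the probes read is not given in the array annotation used here, so the level of TDP1 as a whole has no single direction in these data.

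TDP2, the enzyme for type II adducts, was at the edge of detection throughout. ILMN_1785821 was detected on 2 of 12 arrays, 1 WT and 1 KO array with DMSO, and ILMN_2183216 on 0, with raw signals of 96.2 to 122.3 and 92.3 to 105.3. Its response was not measurable at this brightness.

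PARP1, which senses strand breaks and marks them with poly(ADP-ribose), gave signals far above background (ILMN_1686871). WT cells gave 2201.6, 2390.7 and 1896.4 with DMSO and 2298.5, 1989 and 1552.7 with CPT, and KO cells gave 1939.9, 2088 and 1699 with DMSO and 2000.5, 2309.5 and 1751.9 with CPT. The groups overlapped. The change was -0.03 ± 0.18 in WT cells, with a 95% interval from -0.41 to 0.35 (limma adjusted p = 0.924), and 0.13 ± 0.18 in KO cells, from -0.25 to 0.51 (limma adjusted p = 0.628), and 3 of 6 pairs were higher.

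XRCC1, the scaffold that PARP1 recruits, gave 208.1, 182.2 and 147.9 in WT cells with DMSO and 148.6, 138.1 and 148.7 with CPT (ILMN_1751743). KO cells gave 166.2, 152.7 and 134.9 with DMSO and 143.2, 127.6 and 114 with CPT. The change was -0.02 ± 0.24 in WT cells (95% interval -0.55 to 0.51, limma adjusted p = 0.953) and -0.27 ± 0.24 in KO cells (-0.80 to 0.26, limma adjusted p = 0.443), and 5 of 6 pairs were lower. With median scaling and the block it was called lower in both genotypes, at -0.52 in WT (limma adjusted p = 0.034) and -0.55 in KO cells (limma adjusted p = 0.0286).

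Without overlap between DMSO and CPT arrays on the normalized scale, 4 member probes were lower and 2 higher in WT cells, and 4 were lower and 1 higher in KO cells. Over all probes 19.9% were lower and 18.6% higher without overlap in WT cells and 22.5% and 22.9% in KO cells.

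The direction of several of these changes depends on how the arrays are put on 1 scale. Over all probes, the median change with CPT was 0.06 in WT and 0.05 in KO cells after quantile normalization, and -0.23 and -0.14 when each array was scaled to its median. That median lies among undetected probes, so it aligns the arrays by background rather than by expressed genes. Without any scaling the values were close to these, at -0.26 and -0.17. Which scaling is nearer to the RNA levels was not tested. Of the probes called in WT cells, 44.3% were higher after quantile normalization and 8.61% after median scaling, and in KO cells 45.9% and 15%. The decreases of TOP1 (-1.18 in WT and -0.99 in KO cells with median scaling), TOP2A (-1.05 and -0.68), TOP3A ILMN_1700487 (-0.94 and -0.94) and TDP1 ILMN_1726520 (-1.20 and -0.92) kept their direction under every scaling run, and TOP1 was called in both genotypes with median scaling (limma adjusted p = 0.000338 and 0.00146). TOP1 thus lay below the median of all probes under both scalings (-1.18 against -0.23, and -0.62 against 0.06). The sizes for the 2 dim probes were not stable. TDP1 ILMN_1726520 was at -0.32 in WT and -0.24 in KO cells without background correction, and at -2.77 and -2.27 with the authors' values. TOP3A ILMN_1700487 was at -0.23 and -0.25 without background correction, and at -1.41 and -2.29 with the authors' values.

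**Figure D3:**
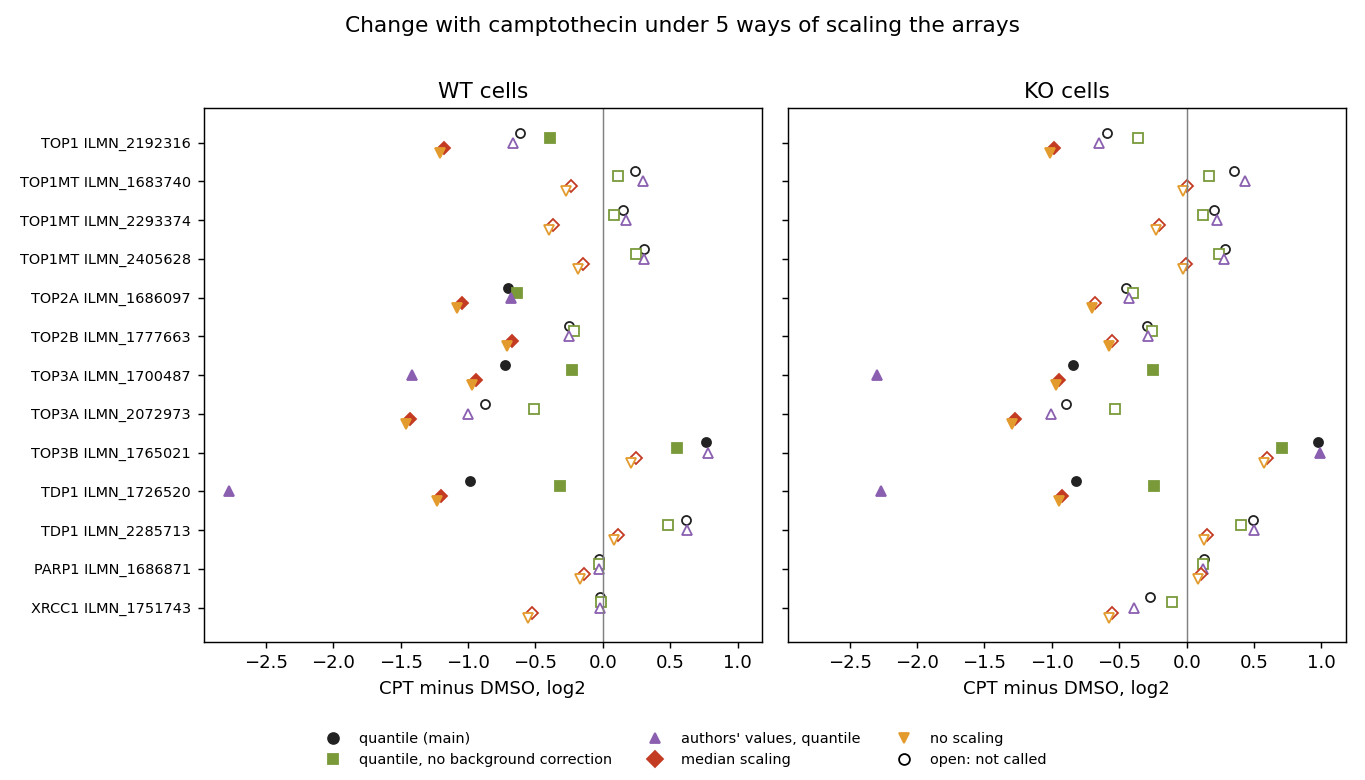
Change with CPT in log2 (x axis) of the 13 tested probes in WT and KO cells under 5 ways of background correction and scaling (symbols), filled where called without the block. Points of TOP1, TOP2A, TOP2B, TOP3A and TDP1 ILMN_1726520 stay left of 0 throughout, and those of TOP1MT in WT cells cross it.

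The CPT response was next compared between KO and WT cells, which cannot separate the loss of ATF3 from other traits of the knockout clone. Of the 13 member probes, 0 were called for a difference in response, as were 0 of all 17264 probes (0%, limma with the replicate block), and at an unadjusted p under 0.05 there were 0 member probes among 849 of all probes (4.92%). By the paired test of the study's methods on the 3 replicate differences (the methods' t-test) there were 0 member probes among 1391 of all probes (8.06%) at that level and 0 of all probes after Benjamini-Hochberg. The differences for the members ran from -0.25 (XRCC1) to 0.26 (TOP2A). For TOP1 the difference was 0.03 ± 0.22, with a 95% interval from -0.46 to 0.51, and for TOP3B 0.21 ± 0.19, from -0.21 to 0.62. For TOP2A it was 0.26 ± 0.23, from -0.25 to 0.77. The widest bounds among the members were -0.85 (XRCC1) and 0.77 (TOP2A), so equal responses are not shown.

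Levels in KO and WT cells also gave no call among the members. With DMSO 0 of 13 were called, against 0.794% of all probes (3.25% with the block, and again 0 members), and with CPT 0 of 13, against 0.655% (3.36% with the block, and 0 members). TOP1MT ILMN_2405628 came nearest. It was higher in KO cells by 0.39 ± 0.15 with DMSO (limma adjusted p = 0.398, and 0.114 with the block) and by 0.37 ± 0.15 with CPT (limma adjusted p = 0.419), and the KO arrays lay above the WT arrays without overlap in both treatments. The other TOP1MT probes differed less. ILMN_1683740 was at 0.006 with DMSO and 0.12 with CPT, with overlap in both. ILMN_2293374 was at 0.29 with DMSO, where groups overlapped, and 0.35 with CPT, where they did not. TOP2B was higher by 0.33 ± 0.15 with DMSO and 0.29 ± 0.15 with CPT, without overlap in either treatment, with limma adjusted p-values of 0.6 and 0.615. The KO minus WT difference of XRCC1 was -0.34 ± 0.24 with DMSO, where groups overlapped, and -0.59 ± 0.24 with CPT, where they did not (limma adjusted p = 0.857 and 0.45). Of all probes, 8.14% lay above and 8.38% below without overlap with DMSO and 6.41% and 6.38% with CPT, beside 2 and 0 of 13 member probes with DMSO and 3 and 2 with CPT. For TOP1 itself the KO cells differed by -0.09 with DMSO (95% interval -0.57 to 0.40) and by -0.06 with CPT (-0.55 to 0.43).

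Genes that act with these enzymes were read from 7 lists of 75 genes, 59 of which had a tested probe, each by its brightest probe. With CPT in WT cells 4 were called higher and 11 lower, where 12.5% and 18.2% of all 10464 genes were called higher and lower by that probe. In KO cells 5 were called higher and 12 lower, against 13.4% and 17.4%. With the replicate block the counts were 10 and 15 in WT cells (23.6% and 25.2% of all genes) and 13 and 17 in KO cells (23.6% and 24.1%). With median scaling 0 genes were called higher and 19 lower in WT cells (2.52% and 28.5% of all genes) and 2 and 13 in KO cells (3.76% and 22.6%). The median change of the 59 was -0.03 in WT cells, beside 0.03 over all genes, and 0 list genes were called between KO and WT cells with DMSO.

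Genes that passed only with the block are named below with that p, as a choice made after their values were seen. Among 13 tested partners of TOP1 adduct repair, 1 was called higher and 2 lower in WT cells, and 3 and 3 with the block. APTX, which removes AMP from failed ligations, fell by 0.58 ± 0.18 on the log2 scale (limma adjusted p = 0.0279), and its other probe was at -0.57. APEX2, a nuclease of damaged 3′ ends, fell by 1.01 ± 0.22 (limma adjusted p = 0.00566) and ADPRS, which takes ADP-ribose off serines, rose by 0.69 ± 0.19 (limma adjusted p = 0.0173). In KO cells the 3 changes were -0.64, -1.33 and 1.21, all called. With median scaling the rise of ADPRS was 0.37 in WT (limma adjusted p = 0.123) and 0.99 in KO cells (limma adjusted p = 0.000817). With the block LIG1, a DNA ligase, and PCNA, the sliding clamp, were also called higher (0.44 and 0.58, limma adjusted p = 0.0243 and 0.0274, but -0.07 and 0.32 with median scaling) and PARG, which degrades poly(ADP-ribose), lower (-0.49, limma adjusted p = 0.0136). Another PCNA probe was at -0.29, and PARG was detected on 1 of 3 WT arrays with CPT.

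Of 12 proteases and nucleases that process topoisomerase adducts, 2 were called higher and 2 lower in WT cells, and 2 and 3 with the block, which added MUS81, a structure-specific nuclease (-0.51, limma adjusted p = 0.0182). NBN, a subunit of the complex with MRE11, fell by 1.08 ± 0.31 (limma adjusted p = 0.0217) and EXD2, an exonuclease, by 0.74 ± 0.17 (limma adjusted p = 0.00698). ERCC4, the nuclease that can cut past an adduct where TDP1 is lacking, rose by 0.60 ± 0.19 (limma adjusted p = 0.0316) and SLX1A, a structure-specific nuclease, by 1.04 ± 0.22 (limma adjusted p = 0.00448). SLX1A has a near-identical copy, SLX1B, from which its signal may not be separable. With median scaling neither rise was called in WT cells (0.28 and 0.56, limma adjusted p = 0.372 and 0.239), and that of ERCC4 was in KO cells (0.85, limma adjusted p = 0.00957).

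Of 12 factors that attach SUMO or ubiquitin, through which trapped topoisomerases are marked and degraded, 1 was called higher and 3 lower in WT cells, and 2 and 3 with the block, which added PIAS4, a SUMO ligase (0.47, limma adjusted p = 0.0209, but 0.08 with median scaling). PIAS1, a SUMO ligase, fell by 1.15 ± 0.20 (limma adjusted p = 0.00143), RNF4, a ubiquitin ligase that reads SUMO, by 0.93 ± 0.18 (limma adjusted p = 0.0029), and CUL4A, a cullin of ubiquitin ligases, by 0.64 ± 0.14 (limma adjusted p = 0.00602). TOPORS, a topoisomerase I binding ligase, rose by 0.73 ± 0.20 (limma adjusted p = 0.0167), but by 0.23 with median scaling (limma adjusted p = 0.612). In KO cells these 4 genes were called in the same directions.

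Of 6 tested partners of TOP3A and TOP3B, 2 were called lower in WT cells, and 3 with the block, which added BLM, the helicase of TOP3A (-0.54, limma adjusted p = 0.028, detected on 2 of 3 WT arrays with CPT). TDRD3, the scaffold of TOP3B, was detected on 3 of 3 WT arrays with DMSO and 0 of 3 with CPT and fell by 0.73 ± 0.19 (limma adjusted p = 0.0126), at least 1.17-fold, while in KO cells the change was -0.53 (limma adjusted p = 0.0503) and was called with the block. FXR1, an RNA-binding partner of this complex, fell by 1.19 ± 0.36 (limma adjusted p = 0.0281), though its other 2 probes were at -0.39 and -0.15. Of 7 factors that prevent or remove RNA-DNA hybrids, AQR and THOC1 fell by 0.88 ± 0.17 and 0.81 ± 0.15 (limma adjusted p = 0.00263 and 0.00244), in KO cells by 0.80 and 0.78. With the block RNASEH1 and RNASEH2A, of enzymes that cut the RNA of such hybrids, were called higher (0.58 and 0.54, limma adjusted p = 0.0237 and 0.0118, but 0.19 and 0.06 with median scaling). Of 8 end-joining genes 0 were called in either genotype without the block, with a median change of 0.10 in WT cells. With the block XRCC5, a subunit of Ku, was called lower (-0.55, limma adjusted p = 0.00805) and PRKDC, the kinase that Ku recruits, higher (0.43, limma adjusted p = 0.028, but -0.08 with median scaling) in WT cells, and LIG4 was called higher and XRCC5 lower in KO cells. Of the genes of drug entry and sensitivity only ABCB1 was tested (-0.01 ± 0.22).

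**Figure D4:**
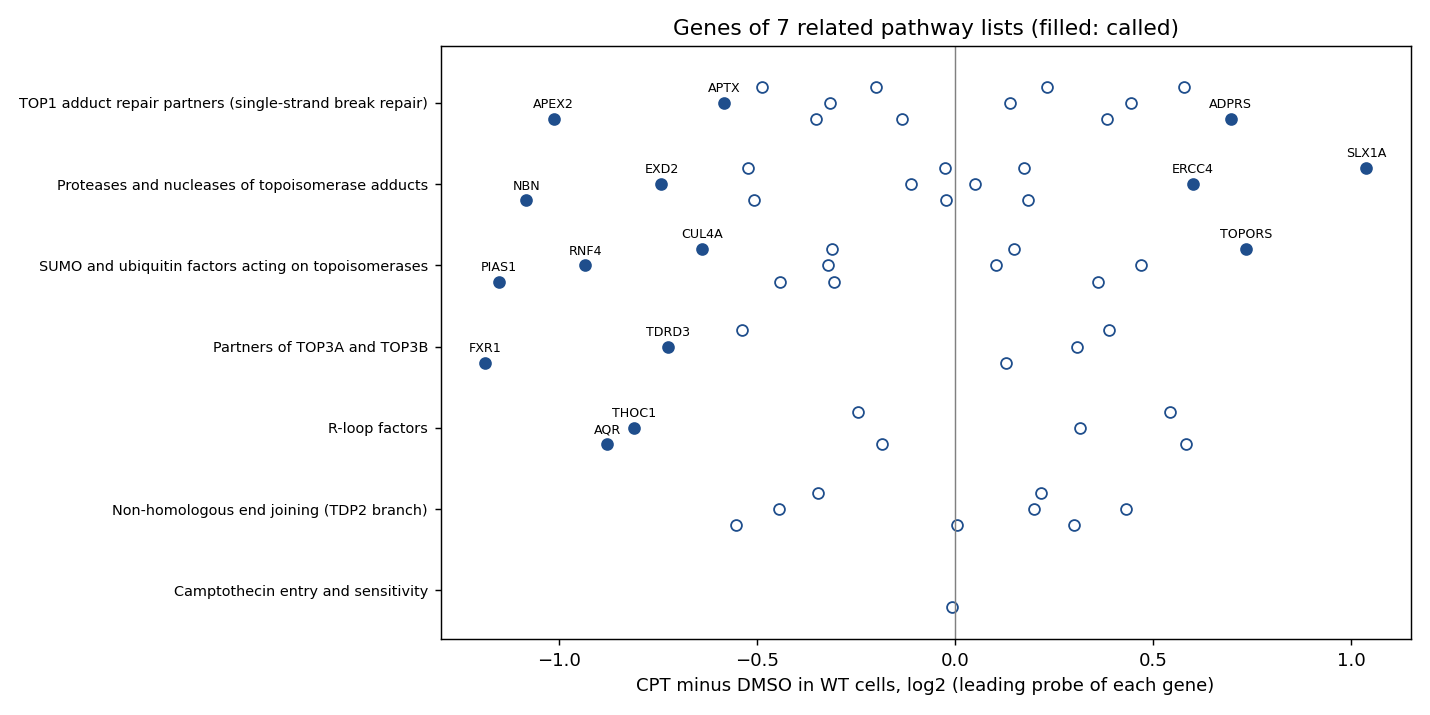
Change with CPT in WT cells, in log2 (x axis), of the 59 tested genes of 7 lists (rows), each by its brightest probe, filled and named where called. There are 11 filled points left of 0 and 4 to the right, and the end-joining row has none.

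The genes whose normalized signal followed that of TOP1 most closely over the 12 arrays, among 7463 genes detected on all of them, were GATAD2A, RBM6, WWC1, EHD4 and RBM10, with Pearson's r from 0.965 to 0.974. All 5 were lower with CPT, from -0.69 (RBM10) to -2.62 (WWC1) in WT cells. The nearest to TOP2A were NMD3, NUSAP1, TPX2, RACGAP1 and BUB1, at r from 0.923 to 0.945, and of these NUSAP1, TPX2, RACGAP1 and BUB1 act in mitosis. Their changes in WT cells ran from -0.43 (NMD3) to -1.48 (BUB1). These correlations describe 12 arrays that share 2 treatments and 3 replicate numbers and carry no test. Between the members' brightest probes over the same arrays, TOP1 was most like TOP3A (r = 0.845) and TOP2A (r = 0.668), and the most opposed pair was TOP2A and TOP3B (r = -0.748).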

How the data were processed

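Total RNA of 12 HCT116 samples was hybridised to Illumina HumanHT-12 v4 bead arrays. Per the file headers, the authors' GenomeStudio export (version not given in the sources used here) holds a non-normalized mean bead intensity per probe and array, which is linear, and a detection p-value against the negative controls. The authors also deposited a table of normalized intensities, whose sorted values are shared within 2 separate sets of arrays (replicate 1, and replicates 2 and 3), so it was used only as an alternative.

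Background was corrected from the detection p-values (limma 3.58.1 in R 4.3.3, nec, offset 16), and signals were quantile-normalized over 12 arrays and taken to log2. Probes with a detection p under 0.01 on at least 3 arrays were kept, 17264 of 47300. Probes were named through the platform annotation, in which 30098 had 1 gene, 8 several and 17194 none. Of the named probes, 30059 were updated through RefSeq gene identifiers and 39 kept their symbol. Each probe was fitted with 4 group means (8 residual degrees of freedom), with Benjamini-Hochberg adjustment over all kept probes and a threshold of 0.05. The difference in response was fitted with the replicate number as a block (6 residual degrees of freedom). Same-numbered arrays deviated together from their group means (correlations of 0.264 to 0.689 over 18 pairs, and all 12 arrays were closest to an array of their own number), so blocked values are given where they change the call of a member in the CPT comparisons or of a list gene in WT cells. Precision is limited by the 3 arrays per group. The fits were tested on simulated data.

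Named were all kept probes of the members, ATF3, from each list the genes whose leading probe (the one with the highest mean) was called in WT cells, at most 3 in each direction, and the 5 genes most correlated with TOP1 and with TOP2A. The members and lists were chosen with earlier results of these data known. Alternatives covered background correction, scaling, the authors' values, the detection filter, 1 leading probe per gene, the block, the methods' paired test, replicates 2 and 3 alone and leaving out each array.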

Additional observations from a re-analysis of the deposited data

How the results depend on the processing

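With CPT, 4 member probes were called in WT and 3 in KO cells. Requiring detection on all 12 arrays left 11 member probes tested. Of these 2 were called in WT cells (all probes, 16.9% higher and 14.9% lower) and 1 in KO cells (17.2% and 14.4%). With 1 leading probe per gene 9 were tested, and 2 were called in WT cells (13% and 18.5%) and 1 in KO cells (13.8% and 17.9%). TOP3A ILMN_1700487 and TDP1 ILMN_1726520, called in the main fit, were not tested in either setting. Replicates 2 and 3 alone gave 2 in WT cells (7.74% and 11.1%). The replicate block gave 7 in WT cells (all probes, 23.8% higher and 22.4% lower) and 8 in KO cells (23.3% and 21.5%). The block with median scaling gave 8 in WT cells, all lower (37.2% of all probes were called lower and 6.91% higher), and 8 in KO cells, 7 of them lower (31% and 10.3%). The block without scaling gave 8 in WT cells, all lower (38.5% and 5.62%), and 8 in KO cells, 7 of them lower (31.7% and 8.78%). Without scaling alone 6 were called in KO cells, all lower (20.9% and 3.23%), and the mean of both genotypes called 6, of which 4 were lower (23% and 22.8%). Leaving out 1 array gave 2 to 5 in WT cells and 2 to 4 in KO cells. The settings without scaling, those joining another scaling with the block and the mean of both genotypes were chosen after seeing the data. Counts for KO against WT cells and for the difference in response were 0 under every alternative, with and without the block.

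Of 1465 comparisons of 65 single values with their alternatives, 1392 kept their side of the threshold, and among these the sign changed in 112 where neither value was called. A further 22 lost the call, 49 gained it and 2 reversed. Both reversals were TOP1MT ILMN_2293374 in WT cells, which went from 0.15 to -0.37 with median scaling and the block and to -0.40 without scaling and with the block, both called. The cause was not tested. The probes of TDP2, and those of TDP1 and TOP3A near background, are limited by signal over background.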
